A study of Mus musculus with 14 samples.

Results

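Il2ra encodes CD25, the alpha chain that gives the interleukin-2 receptor its high affinity, and mature regulatory T (Treg) cells carry it at a high level. The chain has no signalling tail of its own. Il2rb and Il2rg, the beta chain and the common gamma chain, pass the signal to the kinases JAK1 and JAK3 and on to STAT5, which binds to the Il2ra gene and raises its transcription. The gene is also a known target of Foxp3, the transcription factor that defines Treg cells, and it is controlled by a promoter and by several enhancers upstream of the gene and in its long first intron.

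Chromatin accessibility at Il2ra was read from a table of ATAC-seq counts, in which a transposase marks open DNA. The table holds 240778 short windows around peak summits, in GRCm38 coordinates. A window was assigned to Il2ra when its centre had Il2ra as the nearest protein-coding start site within 100 kb, and 53 windows met this rule. The rule used position only and no measured value. All libraries came from Treg cells of spleen and lymph nodes of mice that carry Foxp3AID, an allele whose Foxp3 protein is fused to an auxin-inducible degron, and all mice received the auxin analogue 5-ph-IAA. Mice with R26TIR1(F74G) also carry the plant ligase subunit TIR1 in ROSA26, so that the degron-tagged Foxp3 can be degraded, whereas R26WT mice lack it and served as the controls. The 4 groups were R26WT on day 3 (n = 4), R26TIR1(F74G) on day 3 (n = 4), R26WT on day 7 (n = 3) and R26TIR1(F74G) on day 7 (n = 3). By the study's methods the Foxp3AID allele also encodes a ZsGreen reporter and Cre, and TIR1 lies behind a STOP cassette that Cre removes, together with mCherry. The sorted population was ZsGreen-positive in R26WT mice and positive for both ZsGreen and mCherry in R26TIR1(F74G) mice, so that the gate differed with the genotype. CD25 was not part of the gate. The ages of the mice, the sex and the activation state of the sorted cells are not given in the labels. The study describes its bulk accessibility work of day 7 as done on cells sorted by activation state from females heterozygous for Foxp3AID, and whether this applies to these libraries is not given in their labels.

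The libraries held 5653289 to 20184487 counts, with the lowest in replicate 1 of the R26TIR1(F74G) day 3 group and 6348754 in replicate 3 of the R26WT day 7 group. Windows within 1 kb of a start site took 42.4 to 46.6% of the counts of a library, and the groups overlapped in this share. Accessibility is given as CPM (counts scaled to a common library size), with TMM factors over the 14 libraries. Of the 6 Treg cell markers examined, Il2ra, Ikzf2, Ctla4 and Izumo1r had a window within 1 kb of their start site, with mean levels of 7.22 to 15.2 CPM. Foxp3 and Tnfrsf18 had none, and their nearest windows lay at +4338 and -4002 bases from the start. The 4 Treg start sites, Il2ra among them, summed to 40.9 to 57.0 CPM in R26TIR1(F74G) and 48.1 to 56.1 CPM in R26WT mice on day 3. On day 7 they summed to 47.1 to 50.3 and 49.0 to 57.4 CPM, and the groups overlapped on each day. The 3 start sites of CD4 T cells summed to 21.5 to 32.7 CPM in R26TIR1(F74G) mice and 33.5 to 37.4 CPM in R26WT mice on day 3, without overlap. On day 7 these sums were 29.0 to 34.8 and 30.9 to 33.2 CPM. Of all single windows, 2.11% lay lower without overlap on day 3. Of the 5 B cell markers 1 had a start site window, with 0.826 to 2.16 CPM, and of the 5 myeloid markers 3 had one, with sums of 3.24 to 5.01 CPM. For these 2 lists the ranges of the groups overlapped on each day. The 2 CD8 T cell start sites summed to 11.3 to 15.5 CPM, nearly all of it from Cd8b1 at 12.5 CPM, and the groups overlapped on each day. Neither of the 2 NK cell markers had a start site window. Klrb1c had 18 windows elsewhere, the nearest at -9838 bases and the strongest with a mean of 42.3 CPM. Ncr1 had 1, at -40354 bases with 1.57 CPM. The part of any of these in the results on Il2ra was not tested.

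The Il2ra gene spans chr2:11642792-11693194 on the plus strand, 50403 bases. Its 53 windows ran from 19595 bases upstream of the start site to 30337 bases inside the gene. Of these, 26 lay upstream, 4 within 1 kb of the start site and 23 farther inside the gene. Overlapping windows share reads, and 38 of the 53 overlapped another, so that they formed 29 joined regions in 10 clusters. Il2ra was rich in windows. The median over the 15878 genes with a window was 8 windows and 6 joined regions, and 97.7% of these genes had fewer windows than Il2ra. The last part of the gene held 8 further windows that lie nearer the start of the downstream neighbour Il15ra and were not counted for Il2ra. In the GRCm39 annotation, whose coordinates were not converted here, the first intron of the full-length transcript is 31230 bases long, and the second of its 8 exons starts 31488 bases from the start site, beyond the distance of the last of the 53 windows.

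The sequence just upstream of the start site is shown because the Il2ra window of smallest p between genotypes over both days lay partly over it. These are the 250 bases before the start, from RefSeq on GRCm38.p6 (chr2:11642542-11642791, plus strand, 5′ to 3′). Capitals mark matches to a relaxed form of the NF-kB consensus, GGG and CC with 5 open positions between them.

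Il2ra upstream sequence: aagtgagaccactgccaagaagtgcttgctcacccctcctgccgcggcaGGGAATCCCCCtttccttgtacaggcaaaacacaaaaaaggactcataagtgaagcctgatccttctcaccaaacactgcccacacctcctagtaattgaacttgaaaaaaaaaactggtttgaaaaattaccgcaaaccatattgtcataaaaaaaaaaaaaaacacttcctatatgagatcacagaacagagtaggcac

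Both strands of these 250 bases were searched for 6 motifs, and the share of the 32851 RefSeq promoters with a match in the same 250 bases is given for each. TTCNNNGAA (STAT factors, 7.02% of promoters), TGTTTAC (forkhead factors, 3.17%), TGANTCA (AP-1, 6.75%), the NF-kB form that starts with GGG and ends with TTTCC, with 2 open positions between (1.41%), TGACGTCA (CRE, 1.55%) and TGTGGTT (Runx factors, 4.40%) had no match, which says only that these letters are not in this stretch. The relaxed NF-kB form was added after the sequence was seen. It matched 3 times at 2 overlapping positions, 1 of them on both strands, within chr2:11642591-11642601, and 45.8% of promoters hold it. G and C made up 42.4% of the bases, against a median of 52.4% over all promoters. The window centred 40 bases upstream of the start site (chr2:11642652-11642853) covers the last 140 of the printed bases, and that centred 19 bases downstream (chr2:11642711-11642912) covers the last 81, and the rest of each lies in the transcribed first exon region. The NF-kB match lies outside both.

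Mean accessibility over all 14 libraries ranged from 0.895 to 21 CPM among the 53 windows. The highest was a window inside the gene, 10740 bases from the start site (chr2:11653432-11653633), with 21 CPM. It was followed, with 1 window per joined region, by the -40 window at the start site with 13.2 CPM, a window at +15039 (chr2:11657731-11657932) with 9.04 CPM, one at +21341 (chr2:11664033-11664234) with 8.57 CPM, one 7606 bases upstream (chr2:11635086-11635287) with 8.23 CPM and one at +12390 (chr2:11655082-11655283) with 7.99 CPM. These 6 windows held 43.4% of the accessibility summed over the locus with 1 window per joined region. The weakest windows lay in the cluster 13 kb upstream and at the far end inside the gene. That 12.7 to 13 kb upstream reached 1.3 CPM and the last 3 windows inside the gene 0.941 CPM, with mean counts down to 12.8 where the lowest mean count of the whole table is 10.1. The plot of accessibility along the locus shows the -40, +19 and +10740 windows standing above all others in each of the 4 groups.

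**Figure D1:**
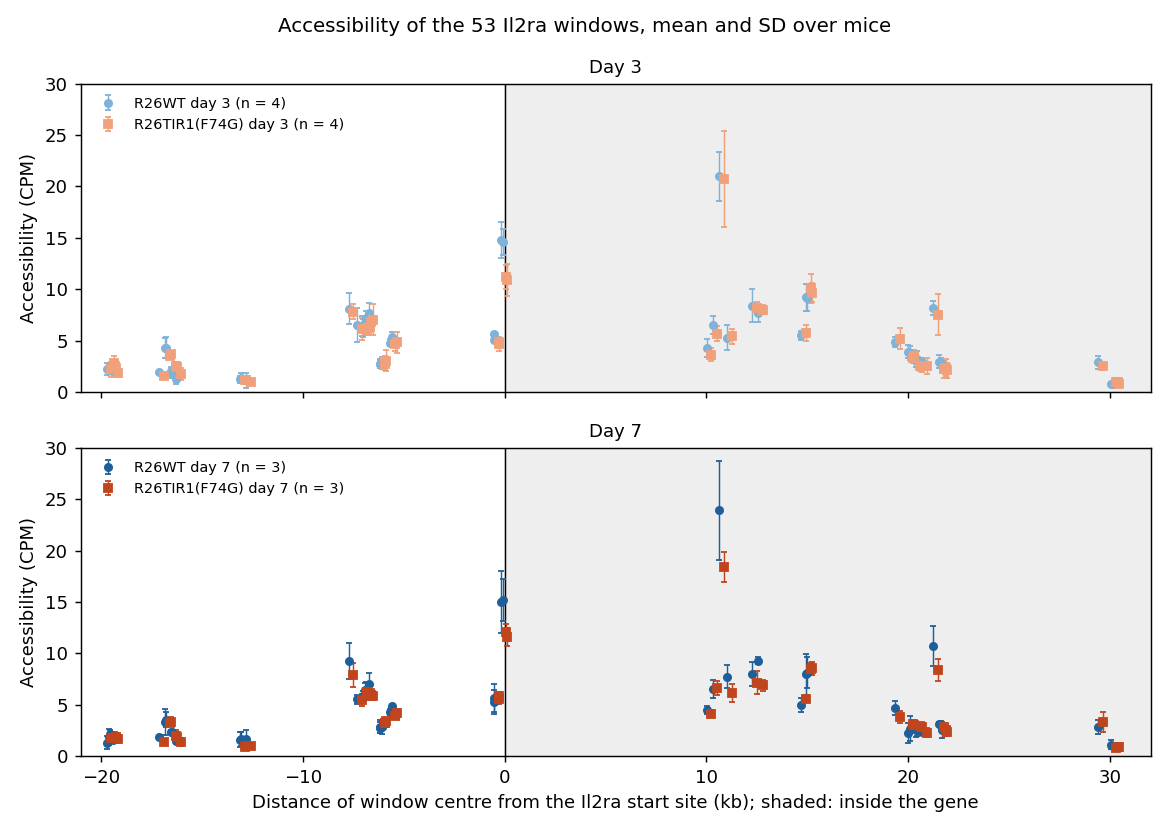
Accessibility (CPM, mean and SD over mice) of each of the 53 Il2ra windows against the distance of its centre from the start site (kb), on day 3 (above, 4 mice a group) and day 7 (below, 3 mice a group), with circles for R26WT and squares for R26TIR1(F74G). At the -40 and +19 windows the squares lie at 10.9 to 12.1 CPM and the circles at 14.6 to 15.2 CPM on both days, while at +10740 they separate on day 7 only as means (18.4 and 23.9 CPM).

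The first comparison asked whether Foxp3 degradation was accompanied by a difference in accessibility at Il2ra. The +19 window, whose centre lies nearest the start site, had lower levels in R26TIR1(F74G) mice on both days. On day 3 the +19 window had 12.9, 9.28, 10.9 and 10.5 CPM in the 4 R26TIR1(F74G) mice and 13.4, 14, 16.3 and 14.6 CPM in the 4 R26WT mice. On day 7 it had 11.7, 10.7 and 12.4 CPM in R26TIR1(F74G) mice and 16.6, 12.9 and 16.2 CPM in R26WT mice. Every R26TIR1(F74G) mouse lay below every R26WT mouse of its day. The difference in log2 accessibility was -0.45 ± 0.14 (edgeR, SE) on day 3, -0.37 ± 0.14 on day 7 and -0.42 ± 0.10 when both days were fitted together. In bulk samples fewer cells with an open start site and less accessibility per cell cannot be told apart.

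This difference did not pass the threshold of 0.05 set over all windows. By edgeR's quasi-likelihood test and the Benjamini-Hochberg method, the adjusted p of the +19 window was 0.47 on day 3, 0.760 on day 7 and 0.218 for both days together, where its unadjusted p of 8.38e-05 was the 92nd smallest of 240778 windows. Taken as a single value, the exact permutation test over mice (two-sided) gave p = 0.0286 on day 3. The exact permutation test gave p = 0.1 on day 7, and each is the smallest its design allows. Over both days, with permutation within each day, the exact permutation test gave p = 0.00143, again the smallest possible. This test was run on 7 windows, without adjustment for their number, and with earlier results of these data known. At the +19 window its values restate the lack of overlap given above and are not separate evidence. With DESeq2 and day as a term, the same window passed over both days (log2 fold change -0.42, adjusted p = 0.00824). Over all alternatives run, with edgeR or DESeq2, its adjusted p was 0.00824 to 0.448, and it was the 1 Il2ra window that passed. The authors also used DESeq2 for differential accessibility, with an FDR cutoff of 0.05, and give no formula for that fit. For bulk RNA they describe fitting genotype alone within 1 condition, unlike this pooled fit. DESeq2 gave an adjusted p to 30712 of the 240778 windows there, 9 of the 53 Il2ra windows among them, so that it adjusted over fewer windows than edgeR. The DESeq2 adjusted p was 0.80 on day 3 and 1.0 on day 7. Without the 2 libraries of lowest depth, a choice made after the data were seen, edgeR gave -0.44 and an adjusted p of 0.0543 over both days. Mouse names began with AC or E, and within the AC mice of day 3 the levels were 12.9 and 9.28 CPM against 13.4, 14 and 16.3 CPM, within the E mice 10.9 and 10.5 against 14.6 CPM, and on day 7 the R26WT mice were all AC.

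Start site windows of other genes leaned the same way on day 3. Over the 11444 genes with a window within 1 kb of their start, the median log2 fold change of the nearest window was -0.11 on day 3 and -0.01 on day 7, both days together gave -0.06, and 0.839% of them had a lower value than Il2ra over both days. Relative to the summed counts of all windows near start sites, a scale chosen after the data were seen, the +19 window had 20.1 to 29.1 CPM of those counts in R26TIR1(F74G) mice against 29.6 to 34.2 in R26WT mice on day 3, and 24.1 to 26.5 against 27.5 to 40.1 on day 7. On this scale the groups did not overlap on either day, and the differences of the mean log2 level were -0.33 on day 3 and -0.42 on day 7. The share of other windows that separate on this scale is not given here. In CPM with TMM factors, R26TIR1(F74G) lay below R26WT without overlap on both days in 384 of all 240778 windows (0.159%), and among the Il2ra windows in 1 of 53, the +19 window.

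The windows beside it differed in how far they shared this. The -40 window overlaps the +19 window, and their levels went together over the 14 libraries (Pearson r = 0.966, from largely the same reads). On day 3 it had 12.8, 9.87, 11 and 11.3 CPM in R26TIR1(F74G) mice and 13.4, 13.8, 17.3 and 14.8 CPM in R26WT mice, without overlap. On day 7 it had 12.5, 11.3 and 12.5 CPM against 17.1, 11.6 and 16.2 CPM, and R26WT replicate 2 lay within the R26TIR1(F74G) range. Its log2 fold change over both days was -0.37 ± 0.10 (edgeR's quasi-likelihood adjusted p = 0.378). The other pair of windows of this cluster, centred 378 and 416 bases upstream with mean levels of 5.47 and 5.09 CPM, had log2 fold changes over both days of -0.09 ± 0.12 and -0.03 ± 0.12.

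From day to day the levels of the start site window overlapped within each genotype. Its 4 group means, in order, were 15.2 ± 2.06 CPM (SD, n = 3) in R26WT mice on day 7, 14.6 ± 1.22 CPM (n = 4) in R26WT mice on day 3, 11.6 ± 0.861 CPM (n = 3) in R26TIR1(F74G) mice on day 7 and 10.9 ± 1.53 CPM (n = 4) in R26TIR1(F74G) mice on day 3. The 2 R26WT groups overlapped, and so did the 2 R26TIR1(F74G) groups. From day 3 to day 7 the log2 change was 0.05 ± 0.14 in R26WT and 0.13 ± 0.14 in R26TIR1(F74G) mice, and the difference of the genotype effect between days was 0.08 ± 0.20 (edgeR interaction term, adjusted p = 0.973).

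**Figure D2:**
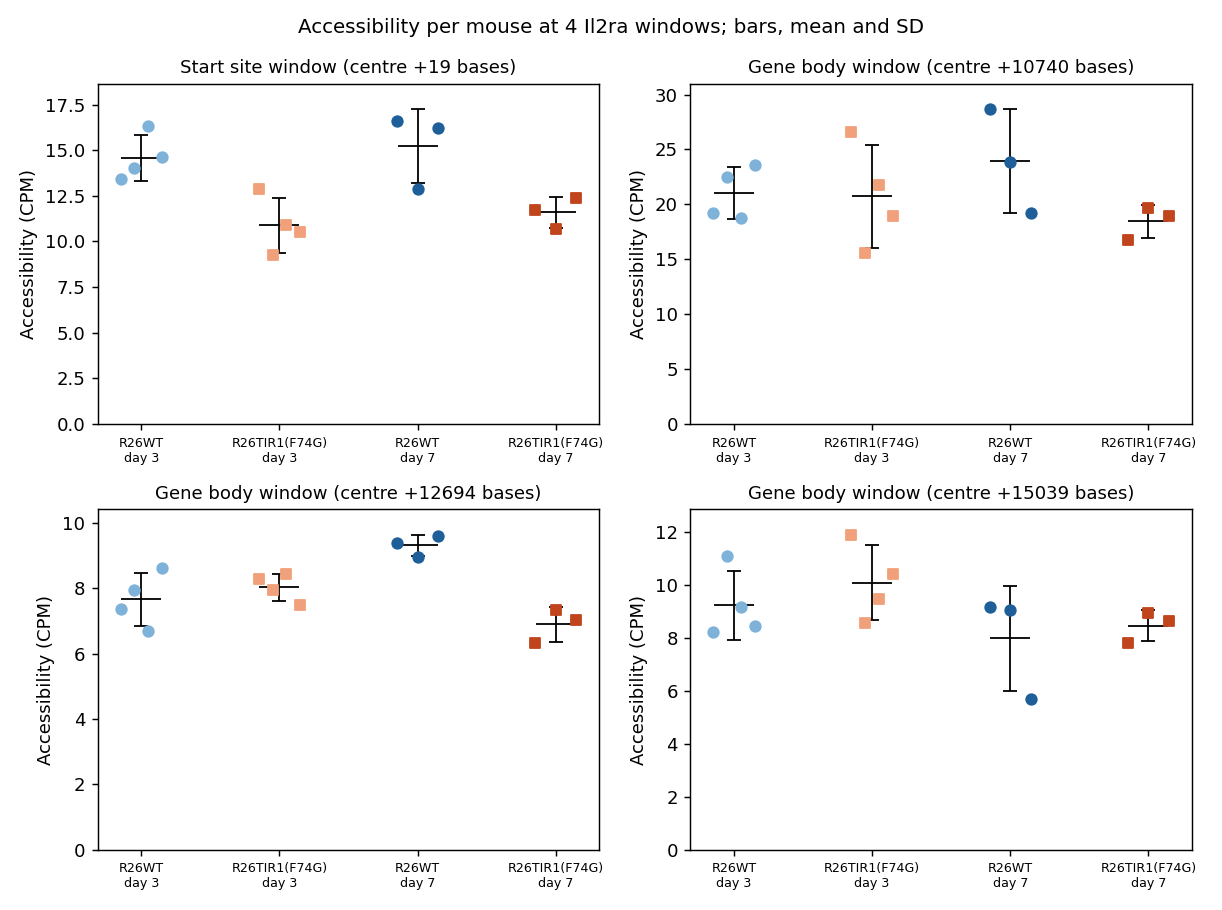
Accessibility (CPM) of 4 Il2ra windows in each mouse, with the mean and SD of each group (n = 4 a group on day 3, n = 3 on day 7). At the start site window (+19) every R26TIR1(F74G) mouse lies below every R26WT mouse of the same day, at +10740 the groups overlap on day 3 and on day 7, at +12694 they are apart on day 7 only, and at +15039 they overlap on both days.

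Of the 23 windows farther inside the gene, 3 had an unadjusted p under 0.05 on day 7. All 3 had lower estimates in R26TIR1(F74G) mice (background for lower 3.2%). On day 3 none of the 23 had such a p (background 7.55%). Over all 53 windows of the locus the day 7 share was 7.55%, near the background of 5.95%, and these counts carry no test. The +10740 window, the most accessible of the locus, had 16.8, 19.7 and 18.9 CPM in R26TIR1(F74G) mice and 28.7, 23.9 and 19.2 CPM in R26WT mice on day 7. On day 3 it had 26.6, 15.6, 21.8 and 18.9 CPM against 19.2, 22.5, 18.8 and 23.6 CPM. On day 7 R26WT replicate 3, a library of low depth, lay inside the R26TIR1(F74G) range, and on day 3 the R26TIR1(F74G) range enclosed all R26WT mice. Its log2 fold change was -0.40 ± 0.13 on day 7, the smallest unadjusted p of the locus on that day (0.00418, edgeR's quasi-likelihood adjusted p = 0.687), and -0.06 ± 0.13 on day 3. The day 7 value was -0.25 without R26WT replicate 1 and -0.51 without R26WT replicate 3. Over both days it was -0.21 ± 0.10, and -0.32 without the 2 libraries of lowest depth (adjusted p = 0.187). The exact permutation test (two-sided) gave p = 0.2 on day 7 and p = 0.771 on day 3.

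The window at +12694 (chr2:11655386-11655587), named after its values were seen, separated the genotypes on day 7. It had 6.31, 7.33 and 7.03 CPM in R26TIR1(F74G) mice against 9.37, 8.95 and 9.60 CPM in R26WT mice. On day 3 the mice had 8.27, 7.94, 8.42 and 7.48 CPM against 7.36, 7.94, 6.69 and 8.62 CPM, and the groups overlapped. The log2 fold changes were -0.43 ± 0.15 and 0.06 ± 0.15, and their difference between days of -0.49 ± 0.21 did not pass in edgeR's quasi-likelihood test (unadjusted p = 0.0257, adjusted p = 0.766). Its neighbour, the +12390 window, had -0.20 ± 0.16 on day 7 and -0.04 ± 0.15 on day 3.

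The +21341 window was lower on both days by its estimates, with log2 fold changes of -0.34 ± 0.16 on day 7 and -0.18 ± 0.16 on day 3. It had 8.93, 7.09 and 9.11 CPM in R26TIR1(F74G) mice and 12.4, 8.61 and 11.1 CPM in R26WT mice on day 7. On day 3 it had 10.3, 7.08, 7.23 and 5.47 CPM against 7.70, 8.07, 9.15 and 7.79 CPM. The groups overlapped on both days, on day 3 through R26TIR1(F74G) replicate 1, the shallowest library, which was the highest of all 8. The day 7 value was -0.19 without R26WT replicate 1 and -0.50 without R26WT replicate 2. The day 3 value was -0.31 without R26TIR1(F74G) replicate 1 and -0.05 without R26TIR1(F74G) replicate 4. Over both days its log2 fold change was -0.25 ± 0.12 (edgeR's quasi-likelihood adjusted p = 0.705).

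The +15039 and -7606 windows did not separate the genotypes. At +15039 the R26TIR1(F74G) mice had 11.9, 8.58, 9.47 and 10.4 CPM on day 3 against 8.22, 11.1, 9.15 and 8.44 CPM, and 7.81, 8.94 and 8.65 CPM on day 7 against 9.17, 9.07 and 5.70 CPM. The groups overlapped on both days, and the log2 fold change over both days was 0.07 ± 0.11, or -0.03 without the 2 libraries of lowest depth. All 3 windows of this cluster, 14.8 to 15.1 kb inside the gene, had estimates above 0 on each day, the only cluster of the 10 for which this held. At -7606, the strongest window upstream, the R26TIR1(F74G) mice had 7.14 to 8.81 CPM on day 3 against 6.84 to 10.3 CPM and 7.03 to 9.25 CPM on day 7 against 7.44 to 10.9 CPM, and the log2 fold change over both days was -0.13 ± 0.11.

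Upstream of the gene the largest estimates lay in weak windows with large errors. The 3 windows of the cluster 12.7 to 13 kb upstream had log2 fold changes of -0.66 ± 0.37, -0.68 ± 0.36 and -0.70 ± 0.37 on day 7, at levels of 0.931 to 0.969 CPM against 1.62 to 1.69 CPM. These windows share reads in part, and on day 3 they had 0.01 ± 0.33, -0.15 ± 0.33 and -0.08 ± 0.39. The -16346 window had 2.16, 3.00, 2.61 and 2.09 CPM in R26TIR1(F74G) mice and 1.82, 1.26, 2.12 and 1.95 CPM in R26WT mice on day 3, a log2 fold change of 0.50 ± 0.25 with 1 mouse of each genotype in the range of the other. On day 7 its estimate was -0.33 ± 0.27, and the difference between days was -0.83 ± 0.36, the smallest unadjusted p of the interaction at the locus (0.025, edgeR's quasi-likelihood adjusted p = 0.765). The next window of that region, at -16157, had the highest estimate over both days, 0.27 ± 0.22.

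**Figure D3:**
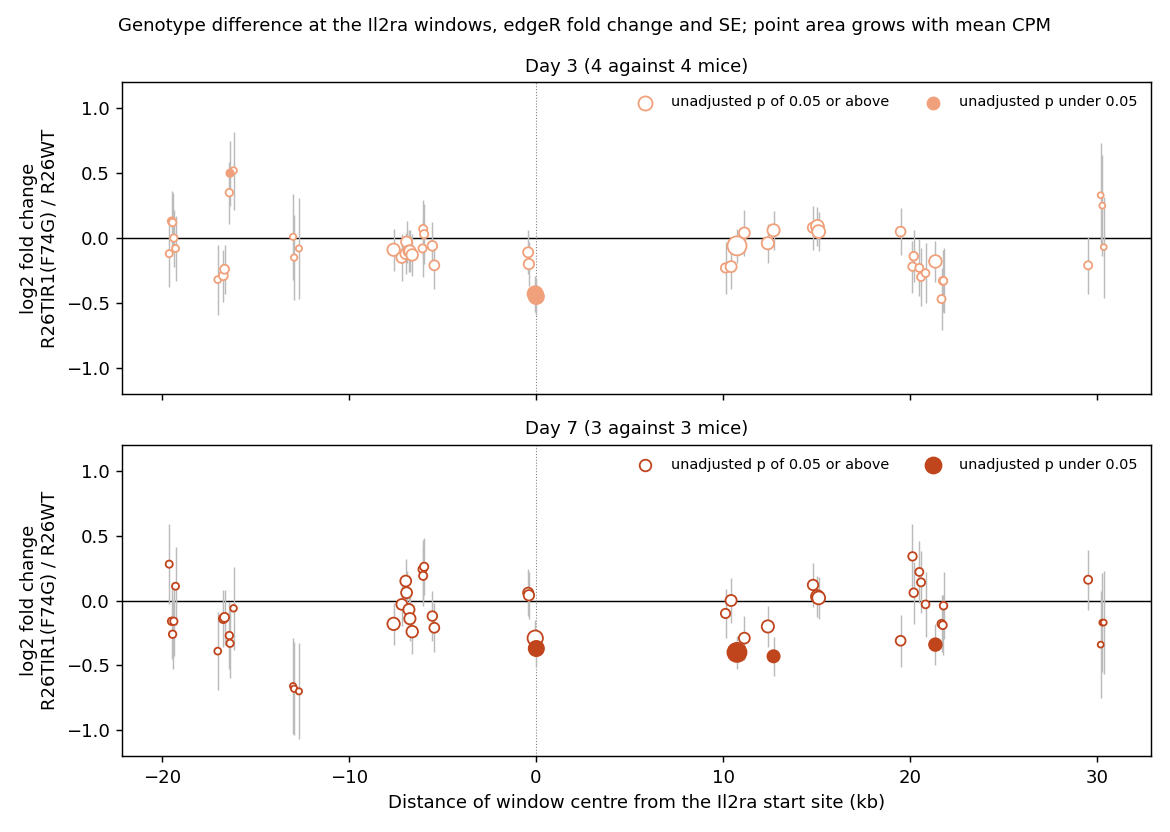
Log2 fold change of accessibility, R26TIR1(F74G) against R26WT (edgeR, bars show the SE), for each of the 53 Il2ra windows against its distance from the start site (kb), on day 3 (above) and day 7 (below). Filled points have an unadjusted p under 0.05 (3 on day 3 and 4 on day 7), and none passed after adjustment; the +19 and -40 points lie at -0.45 and -0.43 on day 3 and at -0.37 and -0.29 on day 7, and point area grows with mean CPM.

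Counted over the locus, no Il2ra window passed the threshold in edgeR's quasi-likelihood test in any of the comparisons. On day 7, 0 of 53 windows were called, while 11 of all 237811 windows tested were (0.00463%), and the smallest adjusted p at the locus was 0.687. On day 3, 0 of 53 were called and none of 235515 (0.0%), with a smallest adjusted p of 0.47. Over both days 0 of 53 were called, and 27 of 240778 (0.0112%). At an unadjusted p under 0.05 there were 4 windows on day 7, all lower in R26TIR1(F74G) mice (background for lower 3.2%), 2 lower and 1 higher on day 3 (background 3.62% and 3.93%) and 4 over both days, all lower (background 3.57%). DESeq2 gave 0 calls on day 7 and on day 3, with 3 and 2 windows at an unadjusted p under 0.05, and 1 call over both days, with 3.

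The estimates leaned to lower accessibility in R26TIR1(F74G) mice. On day 7, 35 of the 53 windows had a log2 fold change below 0 (66.0%, against 51.0% of all windows), with a median of -0.14 against -0.01 over all windows. On day 3, 37 did (69.8%, against 48.8%), with a median of -0.10 against 0.01, and over both days 38 did (71.7%, against 49.3%), with a median of -0.10 against 0.00. The day 3 median was -0.04 with total counts in place of TMM, and it was -0.03 when windows under a mean count of 50 were left out. Since neighbouring windows share reads and all windows share the libraries, these counts carry no test. On both days 24 windows had an estimate below 0 and 5 one above 0. The upstream windows had medians of -0.14 on day 7 and -0.08 on day 3, the windows inside the gene -0.10 and -0.14, and the 4 start site windows -0.12 and -0.31.

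Groups that did not overlap were also counted. On day 7, R26TIR1(F74G) lay below R26WT without overlap in 4 of the 53 windows (at -17002, -5431, +19 and +12694; background 6.02%) and above it in 1 (-6957; background 5.81%). On day 3 this held for 2 windows, both at the start site (background 2.11%), and for none in the other direction (background 2.0%). The shares of the locus were 7.55% at an unadjusted p under 0.05 on day 7 and 5.66% on day 3, near the backgrounds of 5.95% and 7.55%.

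Summed over the locus, accessibility had its lowest mean in R26TIR1(F74G) mice on day 7. The highest mean was that of R26WT mice on day 7 with 1 window per joined region, but that of R26WT mice on day 3 with all windows summed (259 CPM, against 257 CPM on day 7). With the strongest window of each of the 29 joined regions, the total was 171.2, 137.9, 151.2 and 149.2 CPM in R26TIR1(F74G) mice and 151.1, 165.0, 159.9 and 171.3 CPM in R26WT mice on day 3. On day 7 it was 148.8, 142.5 and 147.3 CPM against 179.7, 160.3 and 158.8 CPM. On day 3 the groups overlapped, with R26TIR1(F74G) replicate 1 next to the highest R26WT mouse, and on day 7 they did not. The means were 162 ± 8.55 CPM (SD, n = 4) in R26WT and 152 ± 13.9 CPM (n = 4) in R26TIR1(F74G) mice on day 3, and 166 ± 11.6 CPM (n = 3) and 146 ± 3.29 CPM (n = 3) on day 7. The log2 ratio of these means was -0.09 on day 3 and -0.19 on day 7, and as a sum over the chosen windows it carries no test. Among all single windows, 6.02% lay lower in R26TIR1(F74G) mice without overlap on day 7. The share of other genes whose totals separate in this way is not given here.

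**Figure D4:**
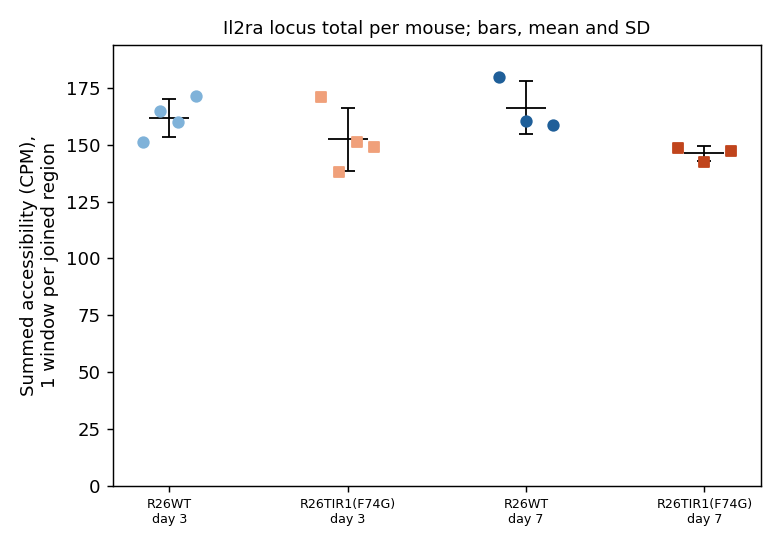
Accessibility summed over 1 window of each of the 29 joined Il2ra regions (CPM) in each mouse, with the mean and SD of each group. On day 7 the R26TIR1(F74G) mice (142.5 to 148.8 CPM) lie below the R26WT mice (158.8 to 179.7 CPM), and on day 3 the groups overlap. The totals carry no test.

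Time on the drug was compared within each genotype. From day 3 to day 7, 0 of 53 Il2ra windows were called in R26WT mice, where 7 of 232991 windows were (0.003%), and 0 of 53 in R26TIR1(F74G) mice, where none of 239163 was (0.0%), in edgeR's quasi-likelihood test. At an unadjusted p under 0.05 there were 4 and 2 Il2ra windows (background 5.25% and 6.96%). In R26WT mice the window at +20117 went from 3.55, 3.31, 4.03 and 4.78 CPM on day 3 to 2.2, 3.26 and 1.35 CPM on day 7, without overlap (log2 change -0.68 ± 0.23, adjusted p = 0.856, and -1.05 without R26WT day 7 replicate 2). In the other direction the window at +11134, beside the +10740 window, went from 4.42, 7.08, 4.58 and 5.13 CPM to 7.04, 7.21 and 9.0 CPM (0.51 ± 0.17, adjusted p = 0.861), with 1 mouse of each day in the range of the other. In R26TIR1(F74G) mice the windows of smallest p in each direction were that at +19483, which was lower on day 7 by -0.42 ± 0.19, and that at +29503, which was higher by 0.40 ± 0.23 (adjusted p = 0.682 and 0.780). The latter was 0.14 without R26TIR1(F74G) day 7 replicate 1. The comparisons of day and those of genotype share libraries.

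For the +20117 window the estimate for genotype was 0.34 ± 0.25 on day 7, the smallest p among windows higher in R26TIR1(F74G) mice, and -0.22 ± 0.20 on day 3. Its difference between days was 0.56 ± 0.32 (edgeR's quasi-likelihood adjusted p = 0.815). Without R26WT day 7 replicate 2 these values were 0.71 on day 7 and 0.92 for the difference, and without R26WT day 7 replicate 3 they were 0.18 and 0.40. Over the locus 0 of 53 windows were called in the interaction of day and genotype, as was none of all 240778 windows (0.0%), and 2 had an unadjusted p under 0.05 (background 6.32%). DESeq2 also called 0 Il2ra windows between days in either genotype and in the interaction, with 3, 0 and 2 at an unadjusted p under 0.05.

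The strongest windows of the locus did not all vary together. Over the 14 libraries the +19 window correlated with the +21341 window (Pearson r = 0.741), the -7606 window (0.569) and the +10740 window (0.500), but not with the +12390 window (-0.0504) or the +15039 window (-0.235). The +12390 and +15039 windows correlated with each other (0.545) and with the +10740 window (0.577 and 0.424). These values come from the same libraries and share their depth and scaling, and they are given as a description.

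The genes whose locus total was most like that of Il2ra over the 14 libraries, among 13898 genes with at least 3 windows, were Cyfip2 on chromosome 11 (Pearson r = 0.913 of log2 totals), Stfa3 on chromosome 16 (0.89), Scgb1a1 on chromosome 19 (0.881), Paxbp1 on chromosome 16 (0.879) and Commd9 on chromosome 2 (0.865). The median over all genes was 0.178, and the sixth gene reached 0.862. Cyfip2 had 187 ± 3.49 CPM (SD, n = 3) in R26TIR1(F74G) mice against 208 ± 15.3 CPM (n = 3) in R26WT mice on day 7. Il2ra itself, with a mean total of 157 CPM, lay above 96.2% of genes, whose median was 32.4 CPM.

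The totals of the nearest genes on either side of Il2ra overlapped between genotypes on each day. Il15ra, which encodes the alpha chain of the related IL-15 receptor and starts 62380 bases downstream, had a total of 26.6 ± 2.27 CPM (SD, n = 4) in R26WT and 26.7 ± 1.25 CPM (n = 4) in R26TIR1(F74G) mice on day 3, and 25.5 ± 1.16 CPM (n = 3) and 25 ± 1.44 CPM (n = 3) on day 7. The RNA splicing gene Rbm17, which starts at -39593 bases, had 48.1 ± 3.35 and 50.6 ± 5.91 CPM on day 3 and 46.2 ± 4.58 and 45.2 ± 4.34 CPM on day 7. Their totals correlated with that of Il2ra at r = 0.242 and 0.431. By single windows, the 15 of Il15ra, 8 of them inside the Il2ra gene, had a median log2 fold change of -0.28 on day 7 and -0.02 on day 3. On day 7, 2 of them were lower and 0 higher at an unadjusted p under 0.05 in edgeR's quasi-likelihood test (background for lower 3.2%), and 0 were called. The 18 windows of Rbm17 had medians of 0.04 on day 7 and 0.2 on day 3. At the start sites of Rbm17 and of Pfkfb3, an enzyme gene of glycolysis that starts at -88721 bases, the log2 fold changes over both days were -0.06 ± 0.09 and -0.01 ± 0.09.

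The other genes of the IL-2 pathway were read from a fixed list of 16 with 464 windows. None of these windows was called between genotypes on either day or over both in edgeR's quasi-likelihood test (smallest adjusted p 0.533, 0.477 and 0.322). On single days the shares at an unadjusted p under 0.05 lay near their backgrounds, with 6.7% on day 7 (background 5.95%) and 8.04% on day 3 (background 7.55%). Over both days there were 46 lower and 7 higher windows at this level, 11.4% of them together (background 6.73%). Overlapping windows share reads and all windows share the libraries, so these counts carry no test. Of the 46, 15 belonged to the kinase gene Pim1, among its 47 windows, and 6 to Cish, an inhibitor of the pathway, among its 15. Il2rb, Stat3 and Stat5b had 4 each and Stat5a 3. Socs1 had 1 among 58 windows, and Socs2, Bcl2 and Myc had 0 among 20, 48 and 33. The median log2 fold change over the 464 windows was -0.06 over both days, -0.04 on day 7 and -0.09 on day 3.

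Of the 16 genes, 15 had a window within 1 kb of their start site, and 8 of these had an estimate below 0 on day 7, 10 did on day 3 and 12 when the days were combined. Of the receptor chains, Il2rg had -0.26 ± 0.09 over both days at 16.5 CPM (edgeR's quasi-likelihood adjusted p = 0.599), while the start site window of Il2rb was weak, at 0.841 CPM, and its estimate of -0.21 ± 0.31 had a large error. Of the kinases, Jak3 had -0.42 on day 3 and 0.02 on day 7, and Jak1 had -0.11 and 0.04. Stat5a had -0.34 ± 0.13 over both days at 5.17 CPM (adjusted p = 0.619), and Stat5b had no start site window. Il2, the gene of the cytokine itself, had 0.57 ± 0.25 on day 3 (edgeR's quasi-likelihood adjusted p = 0.616) and 0.04 ± 0.32 on day 7, at a low level of 1.86 CPM. The feedback inhibitor Socs1 had -0.18 ± 0.08, and the survival gene Bcl2 0.07 ± 0.09. Over both days none of the 15 had an estimate as low as that of the Il2ra start site window, the lowest being -0.34. On day 7 Il2rb (-0.50 ± 0.45) and Stat5a (-0.38 ± 0.17) lay below Il2ra (-0.37 ± 0.14). On day 3 none did, and the nearest was Jak3 (-0.42 ± 0.13, against -0.45 ± 0.14 for Il2ra). Whether Il2ra differs from these genes was not tested.

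**Figure D5:**
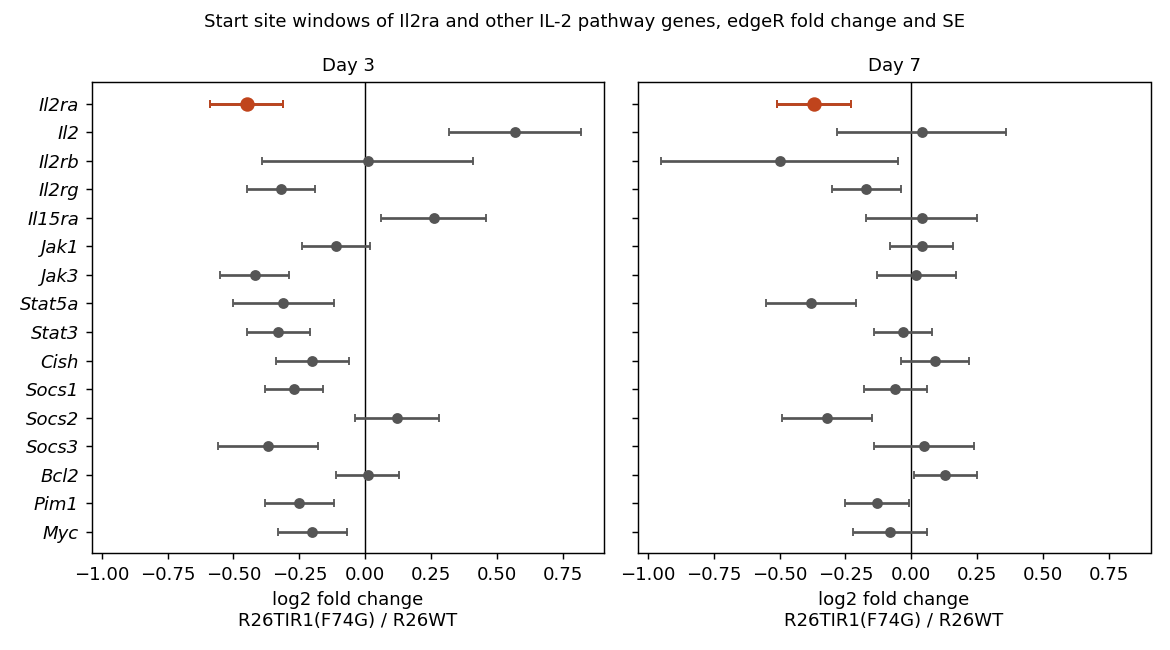
Log2 fold change of accessibility, R26TIR1(F74G) against R26WT (edgeR, bars show the SE), at the start site window of Il2ra (red) and of 15 other genes of the IL-2 pathway, on day 3 (left) and day 7 (right). Il2ra lies at -0.45 on day 3 and -0.37 on day 7, and the other genes range from -0.42 to 0.57 on day 3 and from -0.50 to 0.13 on day 7.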

How the data were processed

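Per the labels and the study's methods, the authors aligned reads to mm10 with Bowtie2, called peaks with MACS2, merged the reproducible ones and used featureCounts to count reads at each summit. The deposited table holds raw counts. How duplicates and the offset of the transposase were treated is not given in the sources used here, nor whether window starts count from 0 or 1. Mice were separate animals by their names.

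Windows were assigned to genes with RefSeq GRCm38.p6. Quasi-likelihood fits used edgeR 4.0.16 in R 4.3.3 with TMM factors. A window entered a comparison if its counts averaged at least 10 over the libraries compared, p-values were adjusted by Benjamini-Hochberg over all such windows, and the threshold was 0.05. SEs were derived from the fold change and the F statistic. Alternatives used DESeq2 1.42.0, limma 3.58.1 offsets, other filters and other terms. The test was run on simulated data first. Log2 levels used a pseudocount of 0.5 CPM.

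The members and lists were chosen with earlier results of these data known. Named windows are that nearest the start site, the 6 most accessible with at most 1 per joined region, those of smallest p in each direction of a comparison and any past the threshold.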

Additional observations from a re-analysis of the deposited data

Results flagged for a closer look

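In the 4 R26WT mice of day 3, the -16157 window had 2.05 CPM in replicate 3, far from the 0.94 to 1.12 CPM of the other mice. It was picked out by its gap to the nearest other mouse relative to the range of the group, and it was the 1 case among 28 sets of 4 mice examined. Chance alone would pick about 5% of such sets.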

How the results depend on the processing

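In edgeR no Il2ra window was called in any of the 6 comparisons under another normalization, filter, threshold of 0.1, term or member rule, or with any mouse left out (0 to 0 calls), while DESeq2 called 1 window over both days, +19 (log2 fold change -0.42). There 9 of the 53 windows had an adjusted p. The log2 fold change of the +19 window stayed below 0 under all alternatives run, from -0.50 to -0.28 on day 7, from -0.52 to -0.35 on day 3 and from -0.47 to -0.37 over both days, with edgeR and DESeq2 adjusted p from 0.296 to 1.0, from 0.259 to 0.8 and from 0.00824 to 0.448. With a mouse left out, the median over the windows ran from -0.14 to -0.10 on day 7, from -0.13 to -0.04 on day 3, from -0.11 to -0.08 over both days, from -0.03 to 0.05 for the interaction, and from -0.12 to 0.00 and -0.11 to -0.05 between days in R26WT and R26TIR1(F74G) mice. The log2 ratio of locus totals ran from -0.22 to -0.13 on day 7 and from -0.15 to -0.04 on day 3.

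Estimates near 0 changed sign, and the cause was not tested. On day 7 this was the +15039 window with loess offsets (0.00) and with a mouse left out (-0.11 to 0.12), and over both days the same window without the 2 libraries of lowest depth (-0.03). On day 3 it was the +10740 window with loess offsets (0.06), a mean count of at least 50 (0.02) and a mouse left out (-0.18 to 0.07), the +12390 window with total counts (0.02), loess offsets (0.04), a mean count of at least 50 (0.05) and a mouse left out (-0.14 to 0.07), and the -7606 window with a mouse left out (-0.16 to 0.05).

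Replicate numbers did not pair the mice, since the deviations of mice that share a number correlated at -0.0787 to 0.0652. With the replicate block the +19 window had log2 fold changes of -0.38 (day 7), -0.44 (day 3) and -0.42 (both days), the medians were -0.12, -0.09 and -0.09, and 0 windows were called. Of the 5 genes most like Il2ra, 5 remained with a pseudocount of 0.1 CPM and 4 when centred within each day. Depth limits the weak windows, whose SE reached 0.41 on day 7 and 0.40 on day 3, against 0.13 at the strongest.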
